A study of Homo sapiens with 15 samples.

Results

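The 9 genes described here encode steps of insulin signalling and insulin-stimulated glucose uptake, from the receptor to the glucose transporter: INSR, IRS1, IRS2, PIK3R1, AKT2, FOXO1, SLC2A4, TBC1D4 and GRB14. They were chosen by symbol from the 17687 genes with a named probe set, and all 9 were found, each with 1 probe set. All 3 groups came from 1 telomerase-immortalised human line, ASC52, of mesenchymal stem cells taken from fat. DED cells were differentiated to adipocytes for 14 days, beginning 3 days after seeding, and then spent 7 days in conditioned medium of the breast carcinoma line MDA-MB-231 (RPMI, 10% serum). MA cells had the same differentiation and then 7 days in unconditioned RPMI with 10% serum. MSC cells were not differentiated, and their medium and time of harvest are not stated. The insulin content of the media is not stated either. There were 5 arrays per group, and no label ties them to separate cultures. The p-values therefore reflect the spread among these samples alone, and that spread may be technical.

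Insulin binds its receptor on fat cells, and the activated receptor phosphorylates docking proteins of the IRS family. These recruit PI3-kinase, whose lipid product activates the kinase AKT. AKT holds the transcription factor FOXO1 out of the nucleus and inhibits the Rab regulator TBC1D4, which lets vesicles carrying the glucose transporter GLUT4 reach the cell surface. Much of this control acts on proteins and their location, which transcript levels do not show.

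In differentiated cells (MA) 7 of the 9 genes were higher than in MSC, most of all FOXO1 and PIK3R1. In conditioned medium (DED) they split. IRS2 and INSR were higher than in MA, while SLC2A4, IRS1, AKT2, TBC1D4 and PIK3R1 were lower, and FOXO1 and GRB14 did not pass the test. Relative to MSC, INSR, IRS1, IRS2, PIK3R1 and FOXO1 were higher in DED, AKT2 was lower, and SLC2A4, TBC1D4 and GRB14 did not pass the test.

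The genes lie on several chromosomes of GRCh38.p14, by the RefSeq gene table. INSR spans chr19:7112265-7294414 and AKT2 chr19:40230317-40285345. IRS1 spans chr2:226731312-226799820 and GRB14 chr2:164492417-164621482. IRS2 spans chr13:109752695-109786583, FOXO1 chr13:40555667-40666641 and TBC1D4 chr13:75283503-75482169. PIK3R1 spans chr5:68215756-68301821 and SLC2A4 chr17:7281718-7288257. Each probe set gives 1 value for the whole gene, so transcripts from different start sites, as those of PIK3R1, were not separated.

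Promoter sequences from RefSeq (GRCh38.p14) were held for 7 of the 9 genes, and not for SLC2A4 and TBC1D4. The 250 bases before the annotated start are shown for the 4 genes with a single entry in that table. IRS2 and INSR were higher in DED than in MA, IRS1 was lower, and FOXO1 was high in both. All lie on the minus strand and are written 5′ to 3′ along the gene, with capitals on matches, on either strand, to the insulin response element core TGTTTTG, the CCAAT box and the GC box GGGCGG. The coordinates are chr13:109786584-109786833 for IRS2, chr2:226799821-226800070 for IRS1, chr19:7294415-7294664 for INSR and chr13:40666642-40666891 for FOXO1.
IRS2: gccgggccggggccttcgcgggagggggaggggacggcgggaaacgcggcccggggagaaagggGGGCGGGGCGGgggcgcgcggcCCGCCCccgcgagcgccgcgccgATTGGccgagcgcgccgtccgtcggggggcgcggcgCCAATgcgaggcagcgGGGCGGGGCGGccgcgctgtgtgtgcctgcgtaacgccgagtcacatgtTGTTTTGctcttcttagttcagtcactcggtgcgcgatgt
IRS1: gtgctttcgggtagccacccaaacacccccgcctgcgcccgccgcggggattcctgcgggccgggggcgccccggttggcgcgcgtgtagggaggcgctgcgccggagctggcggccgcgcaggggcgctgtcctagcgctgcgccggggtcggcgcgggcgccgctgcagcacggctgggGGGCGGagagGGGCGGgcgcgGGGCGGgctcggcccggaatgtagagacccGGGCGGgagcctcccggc
INSR: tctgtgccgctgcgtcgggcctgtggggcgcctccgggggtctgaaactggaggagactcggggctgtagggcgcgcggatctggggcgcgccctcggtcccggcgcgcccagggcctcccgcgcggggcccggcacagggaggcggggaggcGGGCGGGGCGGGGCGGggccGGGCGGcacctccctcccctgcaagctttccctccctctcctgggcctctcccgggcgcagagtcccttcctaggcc
FOXO1: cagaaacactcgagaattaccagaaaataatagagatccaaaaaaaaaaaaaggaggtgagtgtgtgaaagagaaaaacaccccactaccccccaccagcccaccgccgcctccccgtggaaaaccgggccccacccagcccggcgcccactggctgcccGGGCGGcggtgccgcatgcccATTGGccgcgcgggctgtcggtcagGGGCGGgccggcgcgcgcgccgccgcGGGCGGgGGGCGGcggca

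IRS2 had 1 TGTTTTG match, 40 bases before its start, and IRS1, INSR and FOXO1 had none. Among the other genes with an entry, 1 of the GRB14 promoters also held it, 198 bases before its start, and GRB14 was at background in every group. The motif occurs in 4.30% of the 35116 promoters of the RefSeq table over the same length. IRS2 also held 2 CCAAT boxes, FOXO1 held 1, and IRS1 and INSR held none (32.0% of all promoters hold one). All 4 had several GC boxes, 5 in IRS2 and 4 in each of the others, and neighbouring matches in IRS2 and INSR overlap by 1 base (42.6% of all promoters hold one). The FOXO core TGTTTAC (2.98% of promoters) and the E-box CACGTG (6.34%) were absent from these 4 windows. A match is a description of the letters, not a binding site.

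Values below are log2 intensities after RMA, so that a difference of 1 is a doubling of signal, and values are compared between groups within a gene and not between genes. As a scale for background, the 612 negative control probe sets centred on 4.80 (median), and 8.31 was their 95th percentile, called the control limit below. Each difference is the first-named group minus the second, with the SE of limma's moderated fit, and passing the test means an adjusted p under 0.05 over all 17687 genes. The 3 comparisons share groups, so they are not independent of each other.

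**Figure D1:**
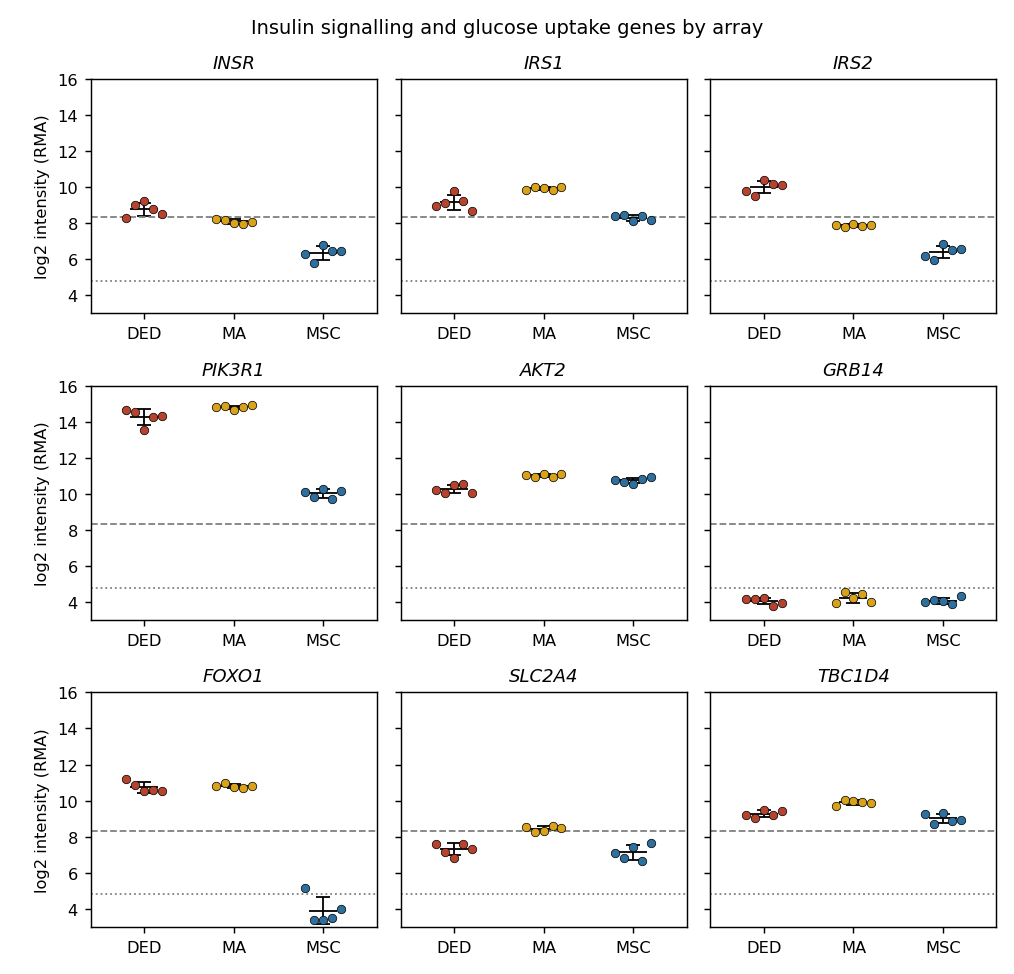
Log2 intensity (RMA) of the 9 genes on each of the 15 arrays, with the mean and SD of each group of 5 as black bars; the dotted line is the median and the dashed line the 95th percentile of the negative control probe sets. FOXO1 and PIK3R1 are high in DED and MA, IRS2 is highest in DED, SLC2A4 and TBC1D4 are highest in MA, and all GRB14 points lie below the dotted line.

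Before the 9 genes, the labels were checked against cell type markers. The mean of 7 adipocyte markers (among them ADIPOQ, FABP4 and PLIN1) ran from 10.10 to 11.57 in DED, 12.57 to 12.74 in MA and 5.39 to 5.58 in MSC. In DED against MA 6 of the 7 fell. LEP went the other way without passing the test, averaging 7.40 in DED and 6.73 in MA, both under the control limit. Of the 5 stem cell markers 4 fell in MA against MSC and all 5 fell in DED against MSC, while in DED against MA 2 rose and 1 fell. Their list means were 9.78 to 10.22 in DED, 9.76 to 10.05 in MA and 11.51 to 11.92 in MSC. None of 4 endothelial, 6 epithelial and carcinoma or 3 hepatocyte markers passed the test in any comparison. The epithelial marker EPCAM averaged 4.35 in DED, 4.21 in MA and 4.24 in MSC. CDH1 and KRT18 means were, like those of EPCAM, under the negative control median, and KRT7 and KRT19 means lay between it and the control limit. KRT8, of the same list, averaged 9.16 in DED, 8.99 in MA and 8.94 in MSC, above the control limit in every group. Of 5 leukocyte markers CD68, a lysosomal protein also made outside macrophages, was lower in DED than in MA by 1.18 and higher in MA than in MSC by 0.82, while PTPRC averaged 5.76, 5.51 and 5.62 in DED, MA and MSC. Of 4 skeletal muscle markers ACTA1 fell in MA against MSC by 0.38. The CD68 mean in DED and all 3 ACTA1 means were under the control limit. Arrays of 1 group correlated over genes at 0.982 or more in DED, 0.992 or more in MA and 0.992 or more in MSC. DED array 1 held the highest adipocyte marker mean of its group (11.57, against 10.10 to 10.49 in the other 4). In these bulk samples fewer cells of a type and less RNA per cell cannot be told apart.

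In MA against MSC 7 of 9 genes rose (77.8%), where 15.4% of all genes rose, and 0 fell, where 17.6% of all genes fell, so that 33.0% of all genes passed in either direction. The arrays of both groups did not overlap in 8 of the 9 genes, as in 27.0% of all genes. The median log2 difference of the 9 genes was 1.47, against -0.002 over all genes. In DED against MA 2 rose (22.2%, against 12.9% of all genes) and 5 fell (55.6%, against 13.0%), and 25.9% of all genes passed in either direction. Their arrays did not overlap in 6 genes, as in 18.1% of all genes, and the median was -0.54 against 0.018 over all genes. In DED against MSC 5 rose (55.6%, against 17.1% of all genes) and 1 fell (11.1%, against 16.4%), where 33.4% of all genes passed in either direction, with 6 genes whose arrays did not overlap, as in 25.1% of all genes. The median there was 0.85 against 0.028. The same counts of risen and fallen genes were found without DED arrays 1 and 3. The 9 genes, and the lists further below, were chosen with earlier results of these data known. Their shares beside those of all genes are therefore a description and not independent evidence.

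**Figure D2:**
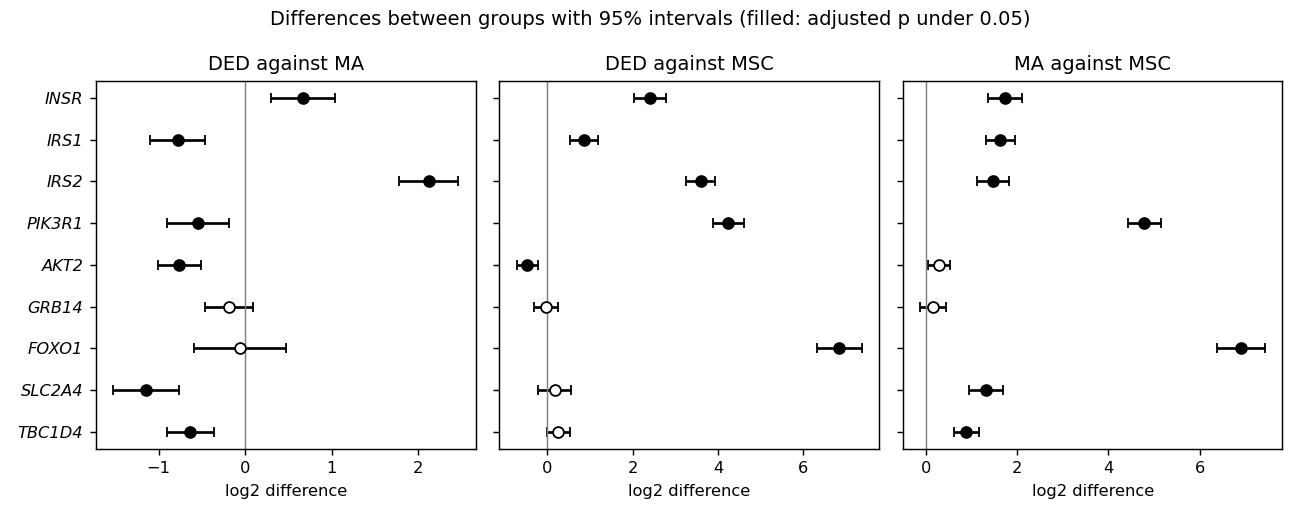
Log2 differences of the 9 genes in DED against MA, DED against MSC and MA against MSC (horizontal axes, with a separate scale in each panel), as points with 95% intervals from limma; filled points have an adjusted p under 0.05. IRS2 and INSR lie right of 0 in all 3 panels, and SLC2A4 and TBC1D4 lie left of 0 in DED against MA and have open points near 0 in DED against MSC.

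INSR, the insulin receptor gene, was highest in DED, then MA, then MSC. It was 8.29, 9.0, 9.23, 8.77 and 8.49 in DED arrays 1 to 5, 8.23, 8.19, 8.0, 7.95 and 8.08 in MA, and 6.31, 5.77, 6.79, 6.45 and 6.44 in MSC. No DED array lay within the MA range and no MA array within the MSC range, though DED array 1 exceeded the highest MA array by only a small margin. INSR rose by 0.67 in DED against MA (SE 0.18, adjusted p = 0.0078) and by 1.74 in MA against MSC (SE 0.18, adjusted p = 1.3e-07). In DED against MSC it rose by 2.40 (SE 0.18, adjusted p = 8.9e-10). The means of MA and MSC lay under the control limit, so no firm size can be given to these differences. IGF1R, the related receptor for insulin-like growth factor, averaged 10.77 ± 0.25 in DED, 10.60 ± 0.14 in MA and 11.32 ± 0.16 in MSC (SD, n = 5 each), and fell in MA against MSC by 0.72 (adjusted p = 0.00012) without passing the test in DED against MA (adjusted p = 0.37).

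The docking proteins IRS1 and IRS2 moved apart in conditioned medium. IRS1 was 8.92, 9.11, 9.78, 9.25 and 8.69 in DED arrays 1 to 5, 9.86, 10.02, 9.95, 9.83 and 10.00 in MA, and 8.37, 8.47, 8.10, 8.37 and 8.17 in MSC. The groups stand in the order MA, DED, MSC with no overlap between neighbours. IRS1 fell by 0.78 in DED against MA, a 1.72-fold lower signal (SE 0.15, adjusted p = 0.00060), and rose by 1.64 in MA against MSC (SE 0.15, adjusted p = 3.7e-08). In DED it was still above MSC, by 0.85 (SE 0.15, adjusted p = 0.00015). The MSC mean of 8.30 was just under the control limit, so the sizes against MSC are not firm.

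IRS2 was 9.77, 9.52, 10.37, 10.15 and 10.13 in DED arrays 1 to 5, 7.90, 7.79, 7.93, 7.82 and 7.90 in MA, and 6.16, 5.94, 6.82, 6.50 and 6.57 in MSC. Here the order was DED, MA, MSC, again with no overlap. IRS2 rose by 2.12 in DED against MA (SE 0.16, adjusted p = 5.2e-09) and by 1.47 in MA against MSC (SE 0.16, adjusted p = 4.3e-07), so that DED exceeded MSC by 3.59 (SE 0.16, adjusted p = 4.6e-13). MA and MSC means of IRS2 lay under the control limit. In DED array 3, IRS1 and IRS2 were both the highest of the group.

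**Figure D3:**
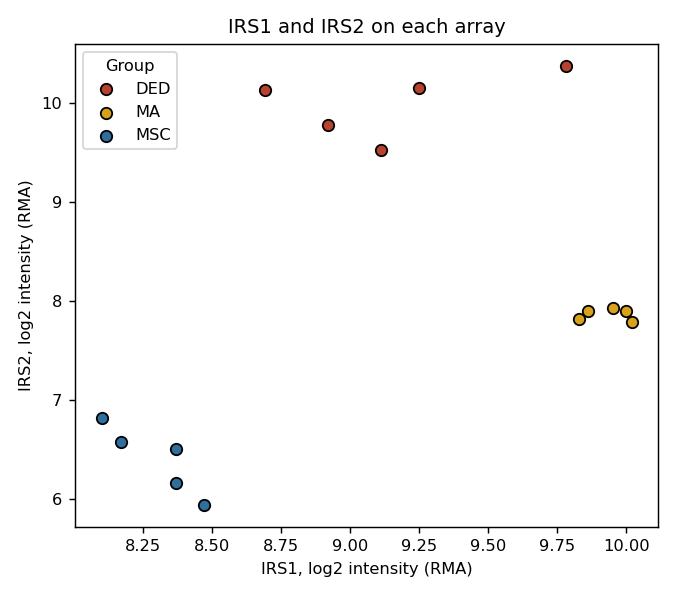
IRS1 (horizontal) against IRS2 (vertical), both as log2 intensity (RMA), with 1 point for each of the 15 arrays. The groups form 3 separate clusters: MSC is low in both genes, MA is right of MSC and somewhat higher, and DED lies above MA and to its left.

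PIK3R1 encodes p85-alpha, the regulatory subunit that binds phosphorylated IRS proteins and stabilises the catalytic subunit of PI3-kinase. Its values were 14.67, 14.56, 13.53, 14.23 and 14.33 in DED arrays 1 to 5, 14.80, 14.85, 14.67, 14.81 and 14.90 in MA, and 10.11, 9.81, 10.29, 9.72 and 10.18 in MSC. DED and MA both lay far above MSC. The rise in MA against MSC was 4.78, or 27.6-fold (SE 0.17, adjusted p = 1.9e-14), and in DED against MSC 4.24, or 18.9-fold (SE 0.17, adjusted p = 6.9e-14), with every group above the control limit. PIK3R1 fell in DED against MA by 0.54 (SE 0.17, adjusted p = 0.023), and the ranges touched at 14.67. That fall lost the call without DED array 3, at -0.36 (adjusted p = 0.055), or without MA array 5, at -0.52 (adjusted p = 0.05002).

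AKT2 encodes the AKT isoform most closely tied to insulin-stimulated glucose uptake in fat and muscle. It was 10.20, 10.06, 10.49, 10.54 and 10.02 in DED arrays 1 to 5, 11.03, 10.95, 11.07, 10.95 and 11.12 in MA, and 10.74, 10.64, 10.57, 10.81 and 10.93 in MSC. All DED arrays lay below all arrays of the other 2 groups. AKT2 fell by 0.76 in DED against MA, 1.70-fold (SE 0.12, adjusted p = 4.8e-05), and by 0.48 in DED against MSC, 1.39-fold (SE 0.12, adjusted p = 0.0032). It was the 1 gene of the 9 to fall in DED against MSC. MA exceeded MSC by 0.29 (SE 0.12, adjusted p = 0.071), and that difference passed without MSC array 5 (0.33, adjusted p = 0.049) or when only these 2 groups were fitted (adjusted p = 0.036). AKT1, the widely expressed isoform, averaged 12.76 in DED, 12.58 in MA and 12.05 in MSC. It rose in MA against MSC by 0.53 (adjusted p = 0.00043) and in DED against MA stood at 0.18 (95% interval -0.04 to 0.40, adjusted p = 0.24). Every DED array of AKT1 (12.62 or more) lay above every MSC array (12.22 or less), opposite to AKT2.

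GRB14 encodes an adaptor that binds the activated insulin receptor and inhibits its kinase. Its lowest, median and highest values were 3.79, 4.16 and 4.20 in DED, 3.96, 4.21 and 4.58 in MA, and 3.89, 4.06 and 4.34 in MSC. All 15 arrays lay below the median of the negative controls, so no level of this transcript was seen above background. Its differences of -0.19 in DED against MA, -0.03 in DED against MSC and 0.16 in MA against MSC did not pass the test (adjusted p = 0.35, 0.89 and 0.42).

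FOXO1 encodes the transcription factor that AKT inactivates and that turns on fasting genes when insulin is low. It was 11.22, 10.89, 10.51, 10.57 and 10.53 in DED arrays 1 to 5, 10.81, 10.99, 10.74, 10.69 and 10.79 in MA, and 5.18, 3.40, 3.39, 3.52 and 4.02 in MSC. DED and MA overlapped, and both lay more than 5 log2 units above every MSC array. The MSC mean of 3.90 was below the negative control median, so the rises of 6.84 in DED (SE 0.25, adjusted p = 1.7e-14) and 6.90 in MA (SE 0.25, adjusted p = 2.7e-14) against MSC depend on background. Between DED and MA the difference was -0.06, with a 95% interval of -0.59 to 0.47 (adjusted p = 0.90). A fall of up to 0.59 or a rise of up to 0.47 is within that interval.

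The uptake genes SLC2A4 and TBC1D4 peaked in MA. SLC2A4 encodes GLUT4, the insulin-responsive glucose transporter. It was 7.61, 7.14, 6.81, 7.58 and 7.34 in DED arrays 1 to 5, 8.55, 8.27, 8.32, 8.61 and 8.47 in MA, and 7.08, 6.82, 7.45, 6.65 and 7.65 in MSC. Every MA array lay above every array of the other groups, and DED and MSC overlapped over most of their range. SLC2A4 fell by 1.15 in DED against MA (SE 0.18, adjusted p = 5.8e-05) and rose by 1.31 in MA against MSC (SE 0.18, adjusted p = 6.8e-06). DED against MSC differed by 0.17, with a 95% interval of -0.21 to 0.54 (adjusted p = 0.54). DED and MSC means were under the control limit, and the MA mean of 8.44 was just above it.

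TBC1D4, also named AS160, encodes the Rab GTPase-activating protein that holds GLUT4 vesicles inside the cell until AKT phosphorylates it. It was 9.18, 9.04, 9.48, 9.22 and 9.43 in DED arrays 1 to 5, 9.70, 10.05, 9.99, 9.93 and 9.85 in MA, and 9.23, 8.72, 9.34, 8.88 and 8.92 in MSC. As with SLC2A4, MA stood above both other groups, which overlapped. TBC1D4 fell by 0.63 in DED against MA, 1.55-fold (SE 0.13, adjusted p = 0.00088), and rose by 0.89 in MA against MSC, 1.85-fold (SE 0.13, adjusted p = 1.5e-05). DED against MSC differed by 0.25 (95% interval -0.02 to 0.52, adjusted p = 0.15).

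Within DED, arrays 1 and 3 often stood at opposite ends. DED array 1 had the highest FOXO1, PIK3R1 and SLC2A4 and the lowest INSR of its group. DED array 3 had the highest INSR, IRS1, IRS2 and TBC1D4 and the lowest FOXO1, PIK3R1 and SLC2A4. The adipocyte marker mean was 11.57 in DED array 1 and 10.17 in array 3, and its part in these differences was not tested.

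The 2 genes with the highest Pearson correlation over the 15 arrays were taken for each of the 9 genes. The arrays fall into 3 groups of 5, so these correlations largely follow the group means, and they are given as a description. IRS2 ran closest with IL18R1 (r = 0.992), a subunit of the interleukin-18 receptor, which averaged 9.90 in DED, 7.56 in MA and 5.48 in MSC, and with C1orf198 (0.986). FOXO1 ran with WASF3 (0.994), an actin regulator, and with the transcription factor ZBTB16 (0.992), which averaged 13.33 in DED, 13.53 in MA and 5.76 in MSC. PIK3R1 ran with LMO3 (0.997) and the nucleotide hydrolase SAMHD1 (0.996), INSR with APOOL and TAF8 (both 0.976), and IRS1 with SSBP2 (0.976) and the proteoglycan SRGN (0.974). AKT2 ran with PFKL (0.938), the liver-type phosphofructokinase, which averaged 9.68 in DED, 10.76 in MA and 10.28 in MSC, and with HMG20B (0.930). SLC2A4 ran with OLFML2A (0.940) and the small GTPase RAB13 (0.938), and TBC1D4 with the receptor NOTCH2 (0.937) and the protease CORIN (0.922). GRB14, at background, reached only 0.788 with OR52A1 and with ZNF232.

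The wider pathway was read from 7 lists by role, which held 135 different genes, the 9 among them, of which 122 were analysed here. Of the genes named from them, those with a mean under the control limit in a group compared are pointed out. The sizes of their differences are not firm. Among 15 receptor and adaptor genes 5 rose (33.3%, against 12.9% of all genes) and 2 fell (13.3%, against 13.0%) in DED against MA. The median was 0.17, against 0.018 over all genes. In MA against MSC 8 rose (53.3%, against 15.4% of all genes) and 3 fell (20%, against 17.6%), with a median of 0.64 against -0.002. Beside IRS2, CBLB, a ubiquitin ligase that restrains receptor signalling, rose in DED against MA by 1.26 (SE 0.12, adjusted p = 9.2e-08). Beside IRS1, the docking protein DOK4 fell by 0.95 (SE 0.14, adjusted p = 2.2e-05), with its DED mean under the control limit. DOK1 fell in MA against MSC by 1.17 (SE 0.14, adjusted p = 1.7e-06).

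Of 19 PI3-kinase, AKT and mTOR pathway genes 3 rose and 3 fell in DED against MA (median 0.18). These shares of 15.8% each were near those of all genes (12.9% and 13.0%). In MA against MSC 4 rose and 4 fell (21.1% each, against 15.4% and 17.6% of all genes, median -0.12). PIK3R1 had the largest rise of this list in MA against MSC, and the next was that of PIK3CB, the p110-beta catalytic subunit, by 0.85 (SE 0.15, adjusted p = 0.00011). PIK3CD, the p110-delta subunit, fell by 1.10 (SE 0.14, adjusted p = 3.1e-06). PIK3CB and PIK3CD were under the control limit in all 3 groups, so their place in the order of the list is not firm either. In DED against MA the class II kinase PIK3C2A rose by 0.91 (SE 0.12, adjusted p = 5.0e-06), as did GSK3B, which AKT inhibits, by 0.77 (SE 0.10, adjusted p = 9.8e-06).

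Of 18 genes that restrain insulin signalling 2 rose (11.1%) and 10 fell (55.6%) in MA against MSC (median -0.39). Over all genes 15.4% rose and 17.6% fell. In DED against MA 7 rose (38.9%, against 12.9% of all genes) and 3 fell (16.7%, against 13.0%), with a median of 0.016. TRIB3, a pseudokinase that binds AKT, averaged 8.16 ± 0.64 in DED, 6.38 ± 0.36 in MA and 8.04 ± 0.16 in MSC (SD, n = 5 each). It rose by 1.78 in DED against MA (SE 0.23, adjusted p = 5.9e-06) and fell by 1.66 in MA against MSC (SE 0.23, adjusted p = 8.4e-06), with DED array 3 alone at 9.29. All 3 TRIB3 means were under the control limit. Its relative TRIB2 averaged 8.94 ± 0.31 in DED and 6.62 ± 0.31 in MA, a rise of 2.32 (SE 0.18, adjusted p = 5.1e-09), with the MA mean under the control limit. GRB10, the close relative of GRB14 and named after its values were seen, averaged 9.66 ± 0.43 in DED, 8.18 ± 0.17 in MA and 9.05 ± 0.21 in MSC. It rose in DED against MA by 1.48 (SE 0.17, adjusted p = 1.0e-06) and, unlike GRB14, had means above the control limit in DED and MSC, though not in MA. DUSP4, a MAP kinase phosphatase, went the other way, with a fall of 1.31 in DED against MA (SE 0.16, adjusted p = 3.4e-06) after a rise of 3.45 in MA against MSC (SE 0.16, adjusted p = 1.1e-12). Its DED and MSC means were under the control limit. ENPP1, a membrane enzyme that inhibits the insulin receptor, fell in MA against MSC by 2.05 (SE 0.24, adjusted p = 7.2e-07).

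Of 20 FOXO factors and genes known as FOXO targets in various tissues 14 rose (70%) and 2 fell (10%) in MA against MSC. The median was 1.56, and over all genes 15.4% rose and 17.6% fell. In DED against MA 5 rose (25%, against 12.9% of all genes) and 7 fell (35%, against 13.0%), with a median of -0.03. PDK4, which shuts pyruvate out of oxidation, fell in DED against MA by 2.68 (SE 0.28, adjusted p = 3.4e-07), and TXNIP, a brake on glucose uptake, fell by 2.96 (SE 0.45, adjusted p = 3.6e-05) with DED arrays from 10.53 to 14.06. SESN2, a stress-induced sestrin, rose by 2.21 (SE 0.19, adjusted p = 2.5e-08). The DED mean of PDK4 and the MA mean of SESN2 were under the control limit. The list holds IRS2 and INSR, and both rose.

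Among 15 hexose transporters 3 rose and 3 fell in DED against MA (20% each, against 12.9% and 13.0% of all genes, median 0.028). In MA against MSC 3 rose and 0 fell (20% rose, against 15.4% of all genes, median -0.01). SLC2A5, the fructose transporter GLUT5, was 9.66, 8.85, 8.65, 8.38 and 7.68 in DED arrays 1 to 5, 9.78, 9.78, 9.94, 10.06 and 9.81 in MA, and 7.35, 7.53, 7.14, 7.71 and 7.54 in MSC, with a fall of 1.23 in DED against MA (SE 0.24, adjusted p = 0.00047). Like SLC2A4 it was highest in MA, but in DED it was above MSC by 1.19 (SE 0.24, adjusted p = 0.00042). SLC2A3, the high-affinity glucose transporter GLUT3, was 10.76, 10.73, 11.55, 10.95 and 10.82 in DED, 9.33, 8.89, 9.33, 9.45 and 9.29 in MA, and 9.35, 9.33, 9.25, 9.34 and 9.49 in MSC. It did not pass the test in MA against MSC (adjusted p = 0.69) and rose by 1.70 in DED against MA (SE 0.14, adjusted p = 2.1e-08). SLC2A14 rose beside it by 1.66 (SE 0.16, adjusted p = 1.2e-07), but the 2 genes are near-identical copies whose probes may not tell them apart. SLC2A10, the transporter GLUT10, also rose in DED against MA, by 1.23 (SE 0.18, adjusted p = 3.0e-05). Under the control limit were the MSC mean of SLC2A5 and the MA and MSC means of SLC2A10 and SLC2A1. SLC2A1, the basal transporter GLUT1, was 7.95, 8.54, 9.85, 9.03 and 8.69 in DED, 8.11, 8.04, 8.12, 8.23 and 7.83 in MA, and 7.89, 8.82, 7.20, 7.74 and 7.88 in MSC. Its difference of 0.75 in DED against MA did not pass (SE 0.28, adjusted p = 0.056), and it passed in 9 of 24 alternatives, down to an adjusted p of 0.0097 without DED array 1. In DED against MSC SLC2A1 rose by 0.91 (adjusted p = 0.016), a call lost without MSC array 3 (0.73, adjusted p = 0.053).

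**Figure D4:**
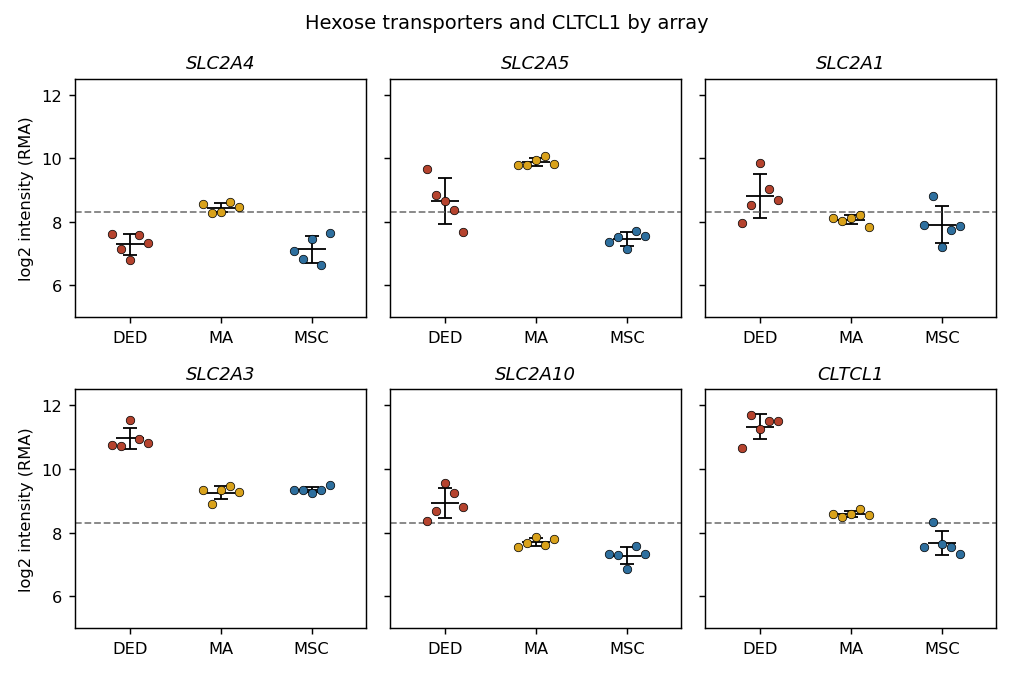
Log2 intensity (RMA) of 5 hexose transporters and the clathrin gene CLTCL1 on each of the 15 arrays, with the mean and SD of each group of 5; the dashed line is the 95th percentile of the negative control probe sets. SLC2A4 and SLC2A5 are highest in MA, while SLC2A3, SLC2A10 and CLTCL1 are highest in DED, and SLC2A1 spreads from 7.95 to 9.85 in DED.

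Of 21 genes of GLUT4 vesicle traffic 2 rose (9.52%, against 12.9% of all genes) and 5 fell (23.8%, against 13.0%) in DED against MA, with a median of 0.12. In MA against MSC 5 rose (23.8%, against 15.4% of all genes) and 3 fell (14.3%, against 17.6%), with a median of 0.068. CLTCL1, the second clathrin heavy chain, which sorts GLUT4 in human cells, was 10.66, 11.71, 11.27, 11.52 and 11.51 in DED, 8.59, 8.48, 8.57, 8.73 and 8.54 in MA, and 7.53, 8.32, 7.63, 7.53 and 7.32 in MSC. It rose by 2.75 in DED against MA (SE 0.18, adjusted p = 6.1e-10), opposite to SLC2A4, and by 0.92 in MA against MSC (SE 0.18, adjusted p = 0.00049). RAB4A, a GTPase of recycling endosomes, was also highest in MA, with a fall of 0.64 in DED against MA (SE 0.12, adjusted p = 0.00044) and a rise of 1.06 in MA against MSC (SE 0.12, adjusted p = 7.3e-07). VAMP2, the vesicle SNARE, rose by 1.26 in MA against MSC (SE 0.20, adjusted p = 4.0e-05). The MSC means of CLTCL1 and VAMP2 were under the control limit.

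Of 16 genes of glucose storage and of insulin's effects on fat 13 rose and 2 fell in MA against MSC (median 1.12). Over all genes 15.4% rose and 17.6% fell there. In DED against MA 2 of the 16 rose and 8 fell (median -0.34), where 12.9% of all genes rose and 13.0% fell. The share of rises in DED against MA was thus near that of all genes. PDE3B, the phosphodiesterase through which insulin lowers cyclic AMP and lipolysis, averaged 7.64 ± 0.55 in DED, 10.18 ± 0.11 in MA and 4.45 ± 0.17 in MSC (SD, n = 5 each). It fell by 2.53 in DED against MA (SE 0.19, adjusted p = 3.2e-09), with the DED mean under the control limit and the MSC mean under the negative control median. ACLY, ATP citrate lyase, fell by 1.91 (SE 0.17, adjusted p = 3.2e-08). PPP1R3C, which targets protein phosphatase 1 to glycogen, rose by 0.74 (SE 0.20, adjusted p = 0.0078). PPP1R3B, of the same family, rose by 0.57 (adjusted p = 0.016), with its DED and MA means under the control limit. Without DED arrays 1 and 3, 1 gene of this list rose in place of 2, as PPP1R3B lost its call (0.38, adjusted p = 0.13).

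**Figure D5:**
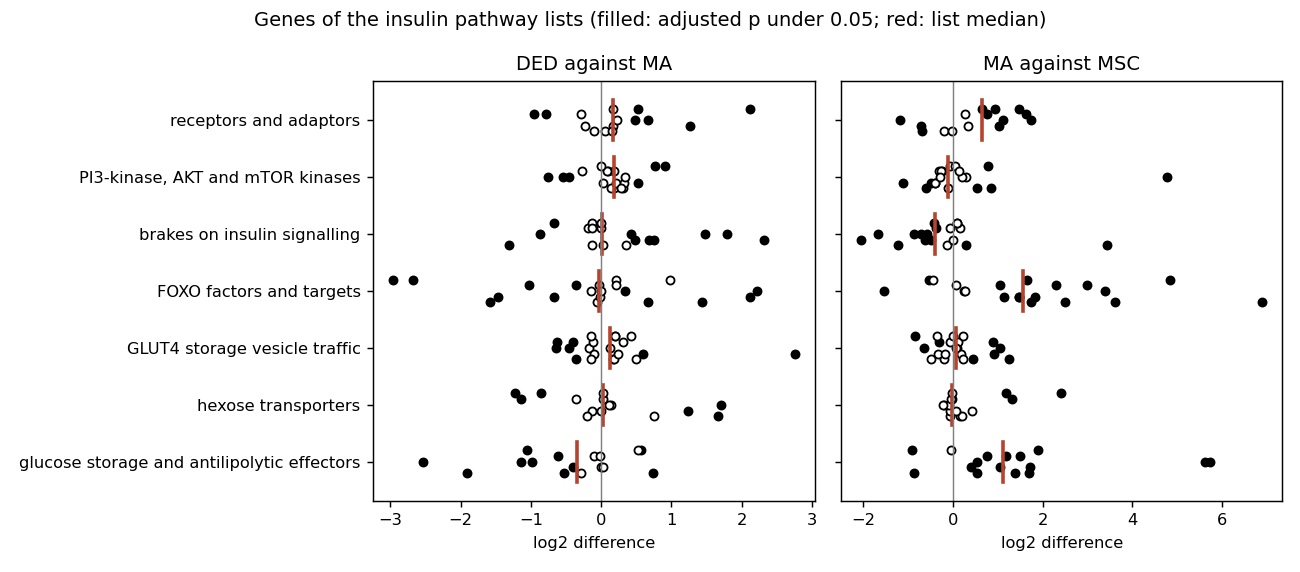
Log2 differences (horizontal axes, separate scales) of the genes of the 7 pathway lists in DED against MA on the left and MA against MSC on the right; filled points have an adjusted p under 0.05 and red bars are list medians. Glucose storage and antilipolytic genes have a median of -0.34 on the left and 1.12 on the right. The kinase, GLUT4 traffic and hexose transporter lists have medians within 0.2 of 0 in both.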

How the data were processed

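Expression was measured on single-colour arrays of biotin-labelled total RNA, 5 in each of the groups DED, MA and MSC, as named in the titles. Per the submitters' processing notes, the authors used Transcriptome Analysis Console and RMA, and what they deposited is 1 log2 intensity per probe set and array. No version or RMA variant is stated in the sources at hand. RMA equalises arrays, so a shift shared by all genes cannot be read. Probe sets were named from the platform annotation, and where a symbol had several, the one with the highest mean was kept, which left 17687 genes. The comparisons used R 4.3.3 and limma 3.58.1 (lmFit, eBayes, 1 mean per group, all 15 arrays, no covariate), two-sided, with Benjamini-Hochberg adjustment over all genes, and the fit was tested on simulated data. The number of arrays limits the precision, and no read depth applies. Negative control probe sets gave the background scale. Of each list and comparison, up to 2 largest rises and falls past the test could be named, with IGF1R, AKT1 and SLC2A1 whatever their test. Alternatives were quantile normalization, a median shift, a filter on dim genes, single probe sets, an intensity trend, array weights, fits of 2 groups, the replicate number as a block and arrays left out. The genes and lists were chosen with earlier results of these data known. Same-numbered arrays of different groups did not deviate together (highest r 0.087). Figures used Python 3.11.15 and matplotlib 3.10.9.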

Additional observations from a re-analysis of the deposited data

Results flagged for a closer look

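Among 69 named genes in 3 groups, 12 of 207 sets of 5 arrays held 1 array far from the other 4, by Dixon's test of the gap over the range (critical value 0.71), where chance flags about 1 in 20. None was a set of the 9 insulin signalling and glucose uptake genes. In DED 7 sets were concerned, and the array that stood apart was array 1 in 3 of them and array 3 in the other 4. DED array 1 was high in PDE3B (8.62, others 7.26 to 7.49), PDK4 (8.42, others 6.80 to 7.10) and GPAM (13.92, others 12.70 to 12.92). DED array 3 was high in TRIB3 (9.29, others 7.74 to 8.0), SLC2A3 (11.55, others 10.73 to 10.95) and HMG20B (11.61, others 11.34 to 11.41), and low in RAB13 (13.17, others 13.79 to 13.93). In MA, array 2 was low in SLC2A3 (8.89, others 9.29 to 9.45), array 1 low in PTPN1 (11.92, others 12.01 to 12.04) and array 4 high in TAF8 (11.48, others 11.25 to 11.31). In MSC, array 1 was low in TRIB3 (7.76, others 8.07 to 8.14) and array 5 low in CBLB (9.97, others 10.12 to 10.14).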

How the results depend on the processing

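Of 27 differences (9 genes in 3 comparisons), 24 kept their direction and their side of the threshold under each of 24 alternatives in which the gene was tested. The exceptions were AKT2 in MA against MSC and PIK3R1 in DED against MA, whose values are given with those genes, and GRB14 in DED against MSC, which was -0.032 with all arrays, ran from -0.08 to 0.033 with single arrays left out, turned sign without MSC array 5 (0.0325) or DED array 4 (0.033), and never passed the test. GRB14 was not tested with dim genes left out. Over the alternatives SLC2A4 in DED against MA ran from -1.23 to -1.03, IRS2 from 2.02 to 2.24 and INSR from 0.55 to 0.78. With the replicate number as a block the counts of risen and fallen members were unchanged (2 and 5 in DED against MA), with 4440 against 4587 genes called over the whole array in DED against MA. The labels do not say whether the numbers pair arrays between groups, and the block changed no call among the 9 genes. Without DED arrays 1 and 3, an alternative for the lists chosen after seeing the data, 39 of 42 list counts stayed within 1.5 times. Levels under the control limit (SLC2A4 outside MA, INSR and IRS2 outside DED, IRS1 and FOXO1 in MSC, GRB14 throughout, and the list genes pointed out above) limit the size of differences.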
